A study of Mus musculus with 3 samples.

Results

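The genes described here build and serve the cilium. They are 38 mouse genes for the BBSome, intraflagellar transport, ciliary motors, the transition zone and proteins of the ciliary shaft and membrane, taken by name from a fixed list and found on the arrays through the RefSeq accession of each probe. All 38 were found, among 21366 named genes, on 57 probes; 22 genes had 1 probe and 16 had several. Whole retina of mice at postnatal day 12 was profiled on 1-colour Agilent arrays, with 1 array of wild-type RNA, 1 of RNA labelled Otx2 KI and 1 of RNA labelled Crx KO. Crx and Otx2 are homeobox genes for transcription factors of photoreceptors, KO commonly stands for a knockout and KI for a knock-in, and the labels give neither the altered exons nor the locus of the knock-in, nor how many mice gave each RNA. The design compares the expression profiles of the 3 genotypes.

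A photoreceptor carries its light-sensing membranes on a modified primary cilium. The outer segment is the swollen far end of that cilium, and everything it needs passes from the cell body through a narrow connecting cilium, which corresponds to the transition zone of other cilia. Intraflagellar transport (IFT) moves cargo along the microtubules, with the IFT-B complex and kinesin motors working outward and the IFT-A complex and dynein 2 working back; the BBSome is a coat that carries membrane proteins through the ciliary gate, and damage to many of these genes causes retinal degeneration with or without kidney, brain or limb disease.

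Each value is a scaled signal: the scanner software's processed Cy3 intensity divided by the 75th percentile of its array and expressed on the scale of the wild-type array. A gene is represented by its brightest probe, and a difference is given as mutant minus wild-type on the log2 scale, where 1 is 2-fold. Each genotype has 1 array, so no difference has a replicate behind it and none was tested; a gene was called on size, when it differed at least 2-fold and its probe stood well above background on both arrays. The error that the scanner software assigns to a log2 difference had a median of 0.20, which leaves out the spread between mice. All 38 genes were well above background on all 3 arrays, and 1 of the 57 probes, the dimmer Kif17 probe, was not on the Otx2 KI array. Between 63.5% and 67.1% of the 59305 non-control spots of an array were well above background and 0 were saturated. On its probe, Crx read 9790 in the wild-type retina, 1062 in Otx2 KI and 7177 in Crx KO, and Otx2 read 40886, 63860 and 62981; where these probes lie relative to the altered sequence is not in the labels, so they do not check the labels, and the mutant arrays are called by them. By the gene positions of GRCm38.p6, 0 of the 38 genes share a chromosome with Crx. Positions were not compared with that of Otx2, so linkage to it was not examined.

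Promoter sequence was searched because Crx and Otx2 bind DNA with the core TAATCC. The Rfx factors, which drive many ciliary genes, bind a longer element, the X-box, of which GTTGCC is a part. RefSeq windows of 300 bases (GRCm38.p6, from 250 bases before to 50 after the start of the transcript) were at hand for 34 of the 38 genes, and both strands were searched; no match of 1 motif can share bases with a match of the other. TAATCC was found at 3 of 34 genes (8.82%), Rpgrip1, Bbs1 and Mak, beside 8.14% of 27025 genes in the same table. GTTGCC was found at 15 of 34 genes (44.1%) beside 14.1% of all. Some of these GTTGCC matches lie within the first 50 transcribed bases, as at Bbs5. Windows here are described by their letters, and a match is not a measured site.

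The 250 bases before the start site are shown for the genes with a TAATCC match, for Bbs5, which gave the lowest difference of all the ciliary genes in both mutant arrays and has neither motif in this stretch, and for Ift57, which stayed near wild-type and has 2 GTTGCC matches. Bbs5 and Ift57 were picked by their differences and do not stand for the other genes. Arl13b (-0.82 in Otx2 KI and -0.90 in Crx KO) has a GTTGCC match before its start site. Ift20 (0.09 and 0.17) has neither motif, and nor do Bbs12 and Cc2d2a. Capitals mark TAATCC or GTTGCC, read on either strand (GGATTA and GGCAAC on the other). The windows, in GRCm38.p6 and written 5′ to 3′ on the strand of the gene, are chr14:52110653-52110902 on the plus strand for Rpgrip1, chr19:4906628-4906877 on the minus strand for Bbs1, chr13:41070466-41070715 on the minus strand for Mak (the start of its 2 that has the match), chr2:69646921-69647170 on the plus strand for Bbs5 and chr16:49699044-49699293 on the plus strand for Ift57.
Rpgrip1: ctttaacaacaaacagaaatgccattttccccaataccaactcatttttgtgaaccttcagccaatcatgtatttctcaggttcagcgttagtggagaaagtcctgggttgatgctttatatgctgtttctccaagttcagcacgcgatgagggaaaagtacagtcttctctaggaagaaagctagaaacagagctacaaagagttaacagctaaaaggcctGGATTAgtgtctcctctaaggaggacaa
Bbs1: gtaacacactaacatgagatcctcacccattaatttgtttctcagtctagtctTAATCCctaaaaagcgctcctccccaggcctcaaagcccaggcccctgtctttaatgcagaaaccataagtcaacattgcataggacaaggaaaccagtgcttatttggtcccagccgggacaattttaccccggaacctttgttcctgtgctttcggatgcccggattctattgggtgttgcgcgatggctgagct
Mak: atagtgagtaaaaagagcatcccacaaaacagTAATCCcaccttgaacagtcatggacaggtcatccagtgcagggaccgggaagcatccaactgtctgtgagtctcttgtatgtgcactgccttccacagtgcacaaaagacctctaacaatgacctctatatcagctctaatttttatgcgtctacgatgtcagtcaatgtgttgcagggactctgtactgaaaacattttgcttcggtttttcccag
Bbs5: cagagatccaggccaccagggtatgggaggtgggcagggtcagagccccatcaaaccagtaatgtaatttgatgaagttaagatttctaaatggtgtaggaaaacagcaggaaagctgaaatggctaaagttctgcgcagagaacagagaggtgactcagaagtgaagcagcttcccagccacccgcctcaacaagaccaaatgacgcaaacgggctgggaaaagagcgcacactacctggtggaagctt
Ift57: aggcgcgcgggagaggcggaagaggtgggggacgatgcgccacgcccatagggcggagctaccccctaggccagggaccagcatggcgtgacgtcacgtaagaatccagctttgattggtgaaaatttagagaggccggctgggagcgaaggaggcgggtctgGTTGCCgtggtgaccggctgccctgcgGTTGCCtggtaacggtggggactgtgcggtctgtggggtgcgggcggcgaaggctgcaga
The match begins 28 bases before the start site at Rpgrip1, 197 at Bbs1 and 218 at Mak.

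In the Otx2 KI array the ciliary genes as a group read below wild-type by modest amounts. Of the 38 genes 5 were at least 2-fold lower (13.2%) and 0 were higher, beside 2.53% of 15809 measured genes lower and 1.35% higher. The 5 were Bbs5, Bbs12, Rpgrip1, Cc2d2a and Lca5. The median log2 difference was -0.27 over the ciliary genes and 0.03 over all genes, with a range among the ciliary genes from -1.43 (Bbs5) to 0.37 (Tulp3). Below 0 lay 27 of 38 (71.1%), beside 44.7% of all genes. At a looser limit of 1.5-fold, 12 of 38 were lower (31.6%) and 0 higher, beside 6.35% and 3.66%. Neurons, Muller glia and pigment epithelium can all bear cilia, and in whole retina fewer cells of a type and less RNA per cell cannot be told apart.

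The Crx KO array was set against the same wild-type array, so the comparisons share their control and are given side by side without a measure of likeness. Of the 38 genes 4 were at least 2-fold lower (10.5%) and 0 were higher, beside 3.43% of 16050 measured genes lower and 1.95% higher. They were Bbs5, Bbs12, Rpgrip1 and Cc2d2a. The median was -0.32, beside -0.01 for all genes, and the range ran from -1.51 (Bbs5) to 0.47 (Tulp3). Below 0 lay 29 of 38 (76.3%), beside 51.5% of all genes, and 13 were at least 1.5-fold lower (34.2%), beside 8.25%; 0 were higher by that much, beside 5.02%.

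**Figure D1:**
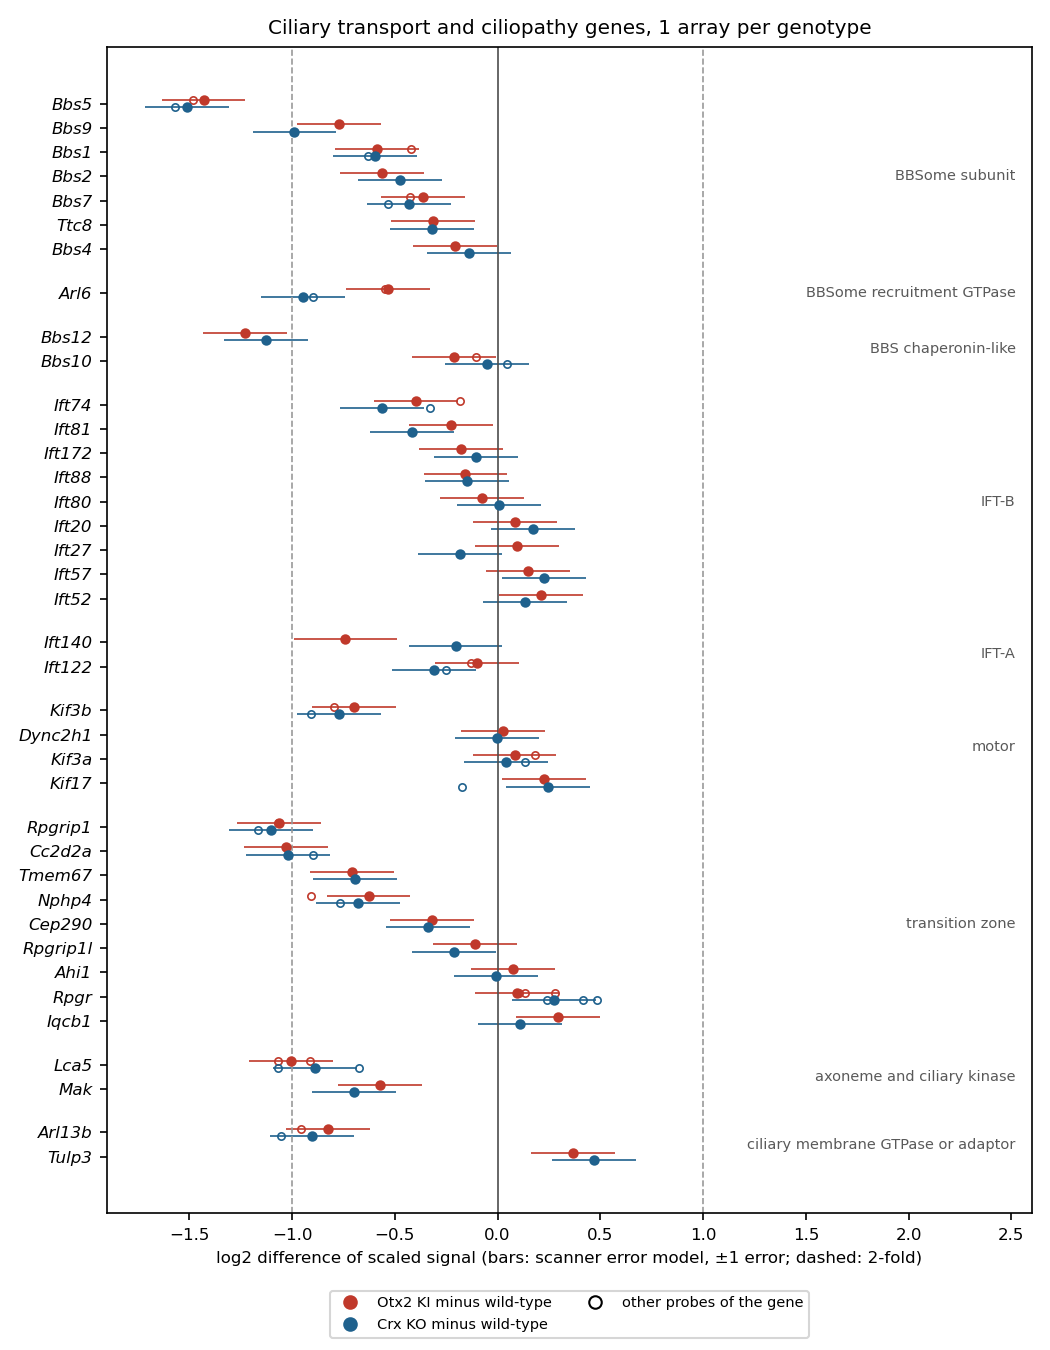
Log2 difference of each of the 38 ciliary genes in Otx2 KI (red) and Crx KO (blue) against wild-type, grouped by role; filled points are the brightest probe with the scanner error model's error as a bar, open points the gene's other probes, and dashed lines 2-fold. The points of all 7 BBSome subunits lie left of 0, IFT-B genes straddle it, and Bbs5 is farthest left, at -1.43 and -1.51.

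The BBSome and the genes that assemble it lay below wild-type in both mutant arrays on the brightest probe of each of the 10 genes, and on the other probes too except the dimmer Bbs10 probe in Crx KO. All 7 subunits among the 38 genes were below 0 in both mutant arrays, but by very unequal amounts. Over all genes 44.7% lay below 0 in Otx2 KI and 51.5% in Crx KO. The subunits had medians of -0.56 in Otx2 KI and -0.47 in Crx KO. Bbs5, a BBSome subunit that binds membrane phospholipids, read 4455 on the wild-type array, 1653 on Otx2 KI and 1561 on Crx KO. Wild-type was thus 2.70-fold and 2.85-fold above the mutant arrays, which lay within 1.06-fold of each other. The dimmer Bbs5 probe read 1030, 369 and 348, which gives log2 -1.48 and -1.57 beside -1.43 and -1.51 on the brighter one.

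Bbs9, a scaffold subunit of the BBSome, read 7378 with wild-type RNA, 4318 with Otx2 KI and 3720 with Crx KO. That is 1.71-fold and 1.98-fold lower, the latter just inside the 2-fold limit (log2 -0.99; it was past the limit with normexp background correction and, at -1.04, with centring on inner retina lists, a setting chosen after seeing the data). Bbs1, the subunit that contacts Arl6, read 7834, 5209 and 5187 (log2 -0.59 in both mutant arrays). The dimmer Bbs1 probe gave -0.42 and -0.63.

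The remaining subunits stood closer to wild-type. Bbs2 read 1140 in the wild-type retina, 772 in Otx2 KI and 821 in Crx KO, and its differences were -0.56 and -0.47. Bbs7 gave -0.36 and -0.43 on its brighter probe and -0.42 and -0.53 on the other, and Ttc8, which encodes the subunit BBS8, gave -0.31 and -0.32. Bbs4 was the nearest of the 7, with 6765, 5858 and 6146 and differences of -0.21 and -0.14, close to or under the error of a log2 difference. On their brightest probes these 7 subunits thus ranged from near 1.10-fold to near 2.85-fold below wild-type. Bbip1, a small BBSome subunit that is not among the 38 genes, read 214, 213 and 197, or 1.003-fold and 1.09-fold below wild-type.

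Arl6 encodes the small GTPase that recruits the BBSome to membranes. It read 11965 on the wild-type array, 8261 on Otx2 KI and 6199 on Crx KO, a difference of -0.53 and -0.95. Its second probe read 7725, 5281 and 4143 and gave -0.55 and -0.90. Both probes placed Otx2 KI between wild-type and Crx KO, and Otx2 KI was 1.33-fold and 1.27-fold above Crx KO on them. The probes read the same RNAs and are not replicates of a genotype.

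Bbs12 and Bbs10 encode chaperonin-like proteins that help the BBSome assemble, and they differed from each other. Bbs12 read 2125 with wild-type RNA, 908 with Otx2 KI and 975 with Crx KO, 2.34-fold and 2.18-fold lower (log2 -1.23 and -1.12). It has 1 named probe, so there is no second reading. Bbs10 read 443, 382 and 427 on its brighter probe, with differences of -0.21 and -0.05, and -0.10 and 0.05 on the dimmer.

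**Figure D2:**
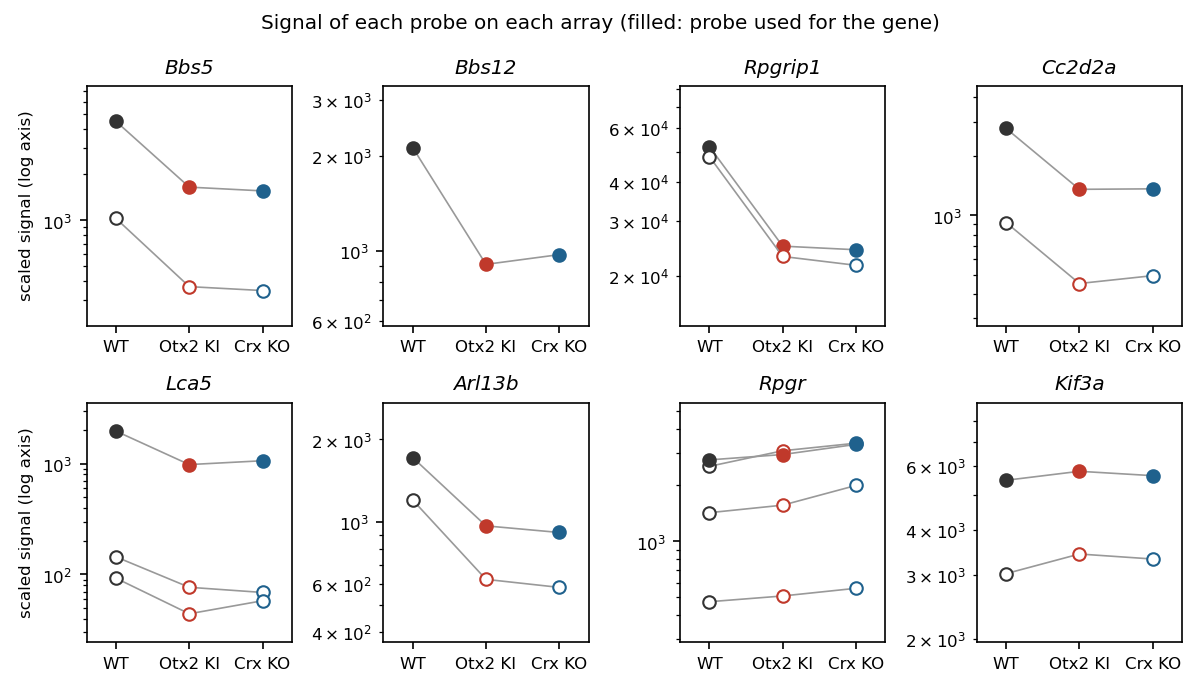
Scaled signal (log axis, a separate range in each panel) of every probe of 8 ciliary genes on each array (WT, wild-type); filled points are the probe used for the gene. Both mutant points lie below wild-type for Bbs5, Bbs12, Rpgrip1, Cc2d2a, Lca5 and Arl13b on every probe, and at or above it for Rpgr and Kif3a.

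Among the genes of intraflagellar transport, those of IFT-B read close to wild-type. Of the 9 IFT-B genes 0 were past 1.5-fold in either mutant array. Over all genes 6.35% were lower and 3.66% higher by that much in Otx2 KI, and 8.25% and 5.02% in Crx KO. For 9 genes a count of 0 is near those shares. The medians of the 9 were -0.07 in Otx2 KI and -0.11 in Crx KO. In Otx2 KI 5 lay below 0 and 4 above, and the same numbers held in Crx KO. Ift88, the subunit whose loss gives the classic mouse model of failed ciliary assembly, read 3588, 3220 and 3236 (log2 -0.16 and -0.15). Ift172, a large peripheral subunit, gave -0.18 and -0.11, and Ift80 gave -0.07 and 0.01.

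Ift20, which also works at the Golgi in sorting membrane proteins toward the cilium, read 4235 in the wild-type retina, 4492 in Otx2 KI and 4774 in Crx KO (0.09 and 0.17). Ift57 read 3402, 3766 and 3982 (0.15 and 0.23) and Ift52, a core subunit, gave 0.21 and 0.13. Ift27, a small GTPase of IFT-B that links it to BBSome exit, gave 0.10 and -0.18. These values lie within or close to the error of 0.20, on either side of 0.

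Ift74 and Ift81, whose products pair to bind tubulin, had the lowest differences of the IFT-B genes. Ift74 read 2858 on the wild-type array, 2170 on Otx2 KI and 1936 on Crx KO (-0.40 and -0.56). A probe for another Ift74 transcript was dimmer, at 87.9, 77.4 and 70.0, and gave -0.18 and -0.33. Ift81 read 1323, 1132 and 991 (-0.23 and -0.42).

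IFT-A and the motors were mixed. Ift122, an IFT-A core subunit, read 4836, 4513 and 3898 (-0.10 and -0.31). Ift140, another core subunit, read only 47.4 with wild-type RNA, 28.4 with Otx2 KI and 41.2 with Crx KO, near the dim end, and its difference of -0.74 in Otx2 KI became -0.32 with normexp background correction. Its difference in Crx KO was -0.20.

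Kif3a and Kif3b encode the paired motor subunits of kinesin-2, and their probes differed in what they showed. Kif3a read 5482, 5804 and 5645, differences of 0.08 and 0.04, with 0.18 and 0.13 on its other probe. Kif3b read 584 in the wild-type retina, 360 in Otx2 KI and 342 in Crx KO (-0.70 and -0.77), with -0.80 and -0.91 on its other probe. Kif3b was thus 1.62-fold and 1.71-fold lower on its brighter probe while Kif3a was within 1.06-fold.

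Kif17, the homodimeric kinesin-2, read 340, 399 and 403 (0.23 and 0.25) on its brighter probe. The other Kif17 probe gave -0.17 in Crx KO and did not stand well above background in Otx2 KI. Dync2h1, the heavy chain of dynein 2, read 2455, 2501 and 2448, and its differences were 0.03 and 0.00 to 2 decimals.

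The genes of the transition zone split into lower and level members. Of 9, 2 were at least 2-fold lower in each mutant array and 4 by 1.5-fold or more (22.2% and 44.4%), beside 2.53% and 6.35% of all genes in Otx2 KI and 3.43% and 8.25% in Crx KO, with medians of -0.32 in Otx2 KI and -0.34 in Crx KO. Rpgrip1, which anchors Rpgr in the connecting cilium and is mutated in a form of Leber congenital amaurosis, read 52093 on the wild-type array, 24900 on Otx2 KI and 24242 on Crx KO. It was 2.09-fold and 2.15-fold lower (log2 -1.06 and -1.10). A second Rpgrip1 probe read 48385, 23066 and 21600 and gave -1.07 and -1.16.

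Rpgr, the GTPase regulator that Rpgrip1 anchors and the main gene of X-linked retinitis pigmentosa, was not lower on any of its 4 probes. Its brightest probe read 2744 with wild-type RNA, 2932 with Otx2 KI and 3323 with Crx KO (0.10 and 0.28). A probe with the same accession read 2533, 3072 and 3373 (0.28 and 0.41). The probes of the other accession read 1428, 1567 and 1999, and 474, 509 and 560. The order from wild-type to Otx2 KI to Crx KO was the same on all 4, with differences from 0.10 to 0.49. The 4 probes read the same 3 RNAs and are not replicates of a genotype. Each difference has an error of 0.20, and several steps of this order were smaller than that. Rpgrip1l, a relative of Rpgrip1 found in most ciliated cells, gave -0.11 and -0.21.

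Cc2d2a, a calcium-binding domain protein of the transition zone mutated in Joubert and Meckel syndromes, read 2769 in the wild-type retina, 1358 in Otx2 KI and 1366 in Crx KO. That is 2.04-fold and 2.03-fold lower (log2 -1.03 and -1.02). Its other probe read 921, 451 and 495 and gave -1.03 and -0.90, the latter inside 2-fold. Tmem67, the membrane receptor-like protein meckelin of the same module, read 751, 460 and 464 (-0.71 and -0.69).

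Nphp4, a nephronophthisis gene of the transition zone, read 2372 on the wild-type array, 1535 on Otx2 KI and 1482 on Crx KO (-0.63 and -0.68), and -0.91 and -0.77 on its second probe. Cep290, a frequent gene of Leber congenital amaurosis, whose product bridges microtubules and membrane, read 941, 754 and 745 (-0.32 and -0.34). Iqcb1, whose product binds Cep290, read 357, 438 and 385 (0.30 and 0.11). On their brightest probes these 3 genes thus ranged from -0.68 to 0.30, with the error of each at 0.20.

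Ahi1, the Joubert syndrome gene jouberin, was printed at 10 spots on each array, and these give the only direct measure of spot-to-spot spread for a ciliary gene. Its spots had an SD of 0.08 on the wild-type array, 0.06 on Otx2 KI and 0.11 on Crx KO on the log2 scale. Its mean signals were 569, 598 and 566, and its differences were 0.07 and -0.01; spots of 1 array show technical spread and not that between retinas. Over all probes printed at 10 spots the median SD was 0.06 to 0.07.

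Lca5 and Mak work along the ciliary shaft. Lca5, the lebercilin gene mutated in Leber congenital amaurosis, whose product binds IFT proteins, read 1970 with wild-type RNA, 983 with Otx2 KI and 1064 with Crx KO, or 2.005-fold and 1.85-fold lower (log2 -1.003, just past the limit, and -0.89). Its dimmer probes, for another transcript, read 144, 76.6 and 68.8, and 92.6, 44.2 and 57.9. They gave -0.91 and -1.07 in Otx2 KI, and -1.07 and -0.68 in Crx KO, so all readings were below wild-type and the side of the 2-fold limit differed between probes. Mak, a kinase that restrains ciliary length and is mutated in a form of retinitis pigmentosa, read 834, 561 and 514 (-0.57 and -0.70).

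Arl13b and Tulp3 act at the ciliary membrane. Arl13b, a small GTPase mutated in Joubert syndrome, read 1720 in the wild-type retina, 972 in Otx2 KI and 920 in Crx KO (-0.82 and -0.90). Its second probe read 1206, 622 and 581 and gave -0.96 and -1.05, past 2-fold in Crx KO. Tulp3, the adaptor that hands membrane receptors to IFT-A, read 473, 609 and 655, and at 0.37 and 0.47 it had the highest difference of the 38 genes in both mutant arrays.

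Genes with several probes allowed a check within these arrays. Among the ciliary genes with at least 2 probes above background, the median SD of the log2 difference between probes was 0.07 in both comparisons (15 genes in Otx2 KI and 16 in Crx KO), beside 0.08 and 0.10 for all such genes. The largest gap between probes was 0.28 for Nphp4 in Otx2 KI and 0.42 for Kif17 in Crx KO. Probes fell on different sides of the 2-fold limit for Lca5 in Otx2 KI and for Arl13b, Cc2d2a and Lca5 in Crx KO.

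Set against each other, the mutant arrays differed little, over all genes as well as at the ciliary genes. Of the 38 genes 0 were past 2-fold and 0 past 1.5-fold in either direction, beside 0.645% of 15806 genes lower and 0.677% higher in Otx2 KI at 2-fold, and 2.31% and 2.44% at 1.5-fold. The differences, Otx2 KI minus Crx KO, ran from -0.54 (Ift140, on its dim probe) to 0.41 (Arl6), with a median of 0.02 beside 0.04 for all genes. The next highest was Ift27, with 10469 in Otx2 KI and 8632 in Crx KO (0.28). After Ift140 the lowest was Rpgr (-0.18). Of the 38 genes 16 were below 0, beside 40.3% of all genes.

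**Figure D3:**
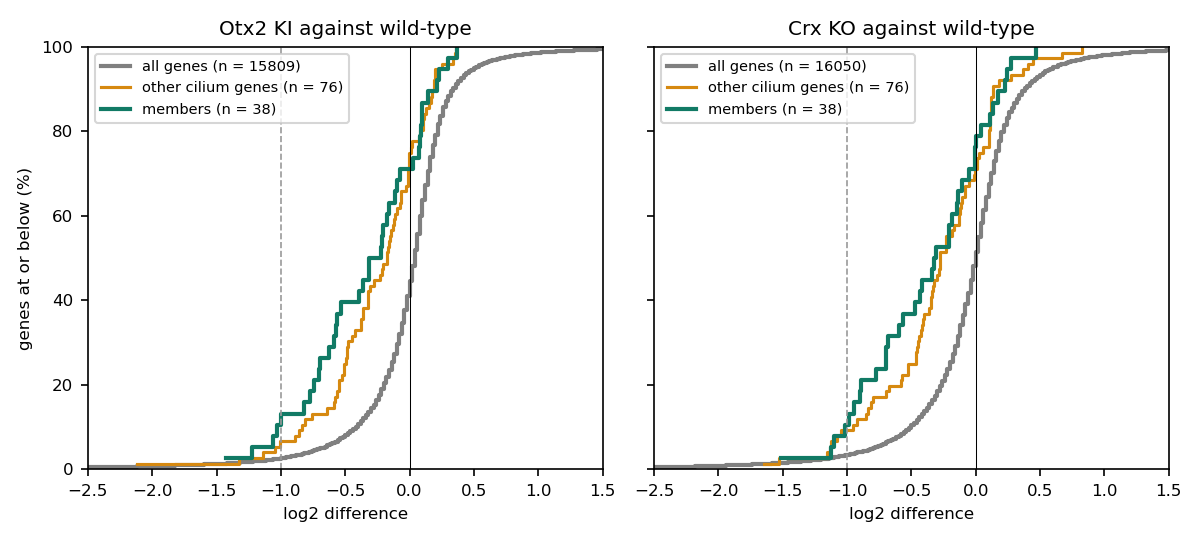
Cumulative share of genes (y axis, %) at or below each log2 difference (x axis) in Otx2 KI and in Crx KO against wild-type, for the 38 ciliary genes (green), 76 other cilium genes (orange) and all measured genes (grey); the dashed line is 2-fold lower. The ciliary genes run left of all genes, with 71.1% and 76.3% of them below 0.

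Other genes of the cilium were read from a list of 79 that holds none of the 38, with 76 of them measured in each comparison. In Otx2 KI 5 were at least 2-fold lower (6.58%, beside 2.53% of all genes) and 0 higher, with a median of -0.17, and 57 of 76 lay below 0 (75%, beside 44.7%). In Crx KO 7 were lower (9.21%, beside 3.43%) and 0 higher, with a median of -0.27, and 54 of 76 lay below 0 (71.1%, beside 51.5%). Against these the 38 genes had medians of -0.27 and -0.32.

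Of these genes past 2-fold, 3 in each mutant array came from the axoneme list. Fam161a, a microtubule-binding protein of the connecting cilium, read 5254 on the wild-type array, 1208 on Otx2 KI and 1678 on Crx KO (-2.12 and -1.65). Rp1, a photoreceptor doublecortin protein that stiffens the axoneme, gave -1.01 and -1.07, and its relative Rp1l1 -1.32 and -1.13. Outside that list, Wdr60, a dynein 2 intermediate chain, gave -1.14 and -1.53, and Cep250, a centrosomal linker protein, -1.05 and -1.13.

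Tmem107, a transition zone membrane protein, was at -0.86 in Otx2 KI and -1.15 in Crx KO, and Tulp1, the photoreceptor relative of Tulp3, at -0.89 and -1.05. Ablim1, an actin-binding protein that the list of membrane transport genes also holds, was 0.83 above wild-type in Crx KO and 0.49 below it in Otx2 KI (log2 -0.49). On brightest probes Ablim1 alone of the 76 was past 2-fold between the mutant arrays (-1.32). A dimmer Ift46 probe gave 1.09 there, where the brightest Ift46 probe gave -0.26. The other BBSome-linked genes, 8 measured, had medians of -0.11 and -0.20, with 0 past 1.5-fold and 3 and 2 above 0. Over all genes 6.35% were lower and 3.66% higher by 1.5-fold in Otx2 KI, and 8.25% and 5.02% in Crx KO. For 8 genes a count of 0 is near those shares. The other IFT lists held 0 genes past 2-fold on their brightest probes, beside 2.53% and 3.43% of all genes lower. For lists this short 0 is near those shares. Of 8 IFT-B genes the medians were -0.13 and -0.25, and of 4 IFT-A genes -0.46 and -0.44.

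Cell type markers were read on the same arrays beside these differences. Rod markers were far below wild-type: 6 of 8 were at least 2-fold lower in Otx2 KI and 7 of 8 in Crx KO, with differences from -7.54 to -0.20 and from -5.68 to -0.38, and their summed scaled signal was 502303 with wild-type RNA, 154747 with Otx2 KI and 162696 with Crx KO. Of the cone markers 4 of 6 measured were lower and 1 higher in each mutant array, and Opn1sw was not well above background in either. The higher one was Gngt2, a cone transducin subunit (2.13 and 2.04). The summed scaled signal of all 7 listed cone genes, Opn1sw included, was 90756, 131330 and 125202. Gngt2 alone of the measured cone genes was above wild-type, and the other 5 were below it, in both mutant arrays. Bipolar markers had medians of -0.18 and -0.06, amacrine, horizontal and ganglion cell markers 0.06 and 0.07, and Muller glia markers 0.11 and 0.29. Of these 24 genes 0 were past 2-fold in either mutant array. Over all genes 2.53% were lower and 1.35% higher by 2-fold in Otx2 KI, and 3.43% and 1.95% in Crx KO. For 24 genes a count of 0 is near those shares.

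Tissues next to the retina differed as well. Pigment epithelium and melanocyte markers had medians of -0.90 in Otx2 KI and -1.62 in Crx KO. Of 8 measured, 2 and 6 were at least 2-fold lower. The summed scaled signal of all 9 listed was 12706 in the wild-type retina, 6147 in Otx2 KI and 4365 in Crx KO. That sum holds Best1, which was not well above background on any array. Lens markers had medians of 1.24 and -0.76 over 4 measured genes. Summed scaled signals of all 6 listed were 241, 605 and 151, with Mip and Lim2 not well above background on any array. Vessel and microglia markers held 0 genes past 2-fold, which for lists this short is near the shares of all genes given above. The part of these cell types in the differences of the ciliary genes was not tested.

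**Figure D4:**
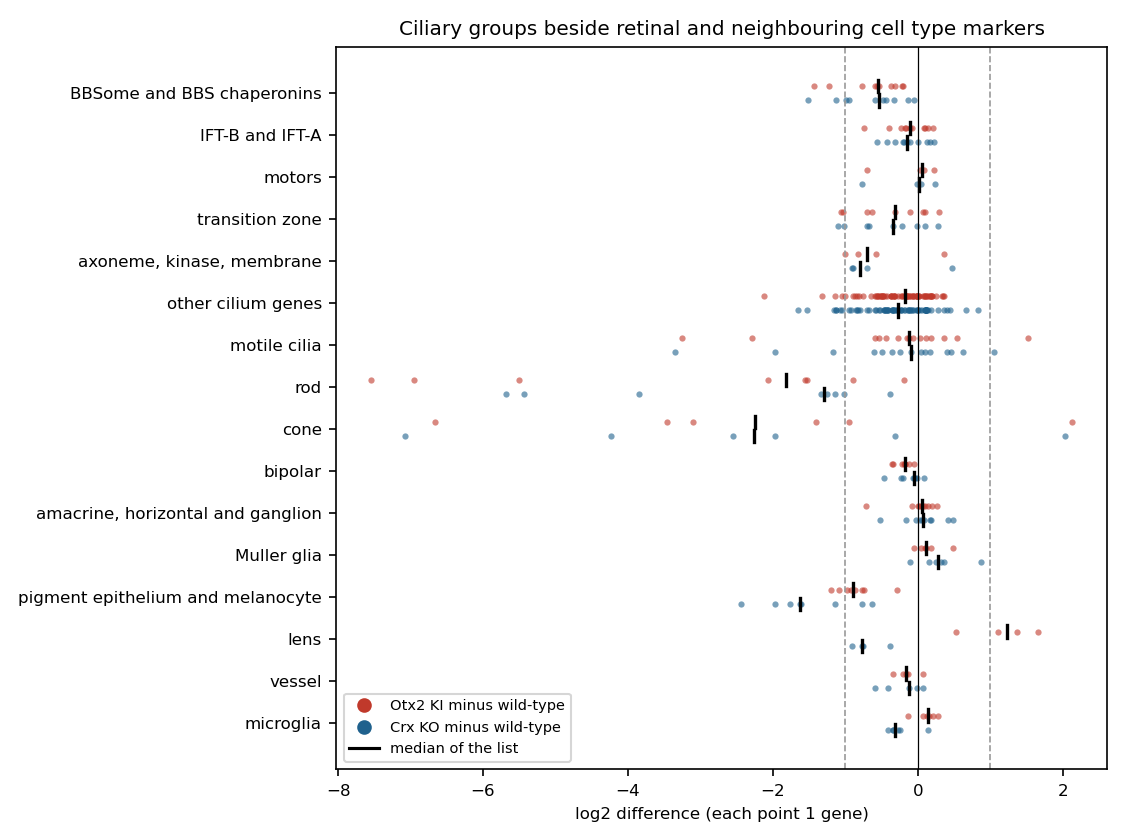
Log2 difference of every measured gene (points) in Otx2 KI (red) and Crx KO (blue) against wild-type, for the ciliary genes by group, the other cilium genes, motile cilium genes and cell type markers; black ticks are list medians and dashed lines 2-fold. Rod markers reach -7.54, while the ciliary genes stay between -1.51 and 0.47.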

How the data were processed

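RNA of whole mouse retina was measured on 3 arrays, 1 per genotype, with groups taken from the labels. The deposited scanner files hold spot intensity values written by Agilent Feature Extraction 12.0.3.1, per the file headers, which name mouse build mm9. Control and outlier spots (126 to 136 per array) were left out, replicate spots averaged, and log2 processed signals reduced by each array's 75th percentile (564 to 574 units). The value table the authors deposited equals the processed intensity times a constant of 2.49, 2.54 and 2.61 per array, with medians of 129.8, 125.7 and 135.8; its scale is linear, with no centring, and the choice of constants was not given in the sources used here. Accessions were matched without versions to RefSeq genes of GRCm38.p6, which named 28329 of 55675 probes with values on all arrays. Python 3.11.15, numpy 2.4.6 and pandas 2.3.3 were used, and limma 3.58.1 in R 4.3.3 for normexp (offset 50), run on the median signals because the files hold no mean signal column. The steps were tested on data simulated from the wild-type array. The simulated noise was that between spots of 1 array, so the test cannot speak to the spread between mice. The 38 genes, the other lists and the search motifs were chosen with earlier results of these data known. All 38 genes could be named; those past 2-fold, or with probes on different sides of it, were to be given in full, as were listed cilium genes past 2-fold. Ick was updated to Cilk1 and Ccrk to Cdk20 through synonyms, which left 79 other cilium genes.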

Additional observations from a re-analysis of the deposited data

How the results depend on the processing

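The counts of ciliary genes at 2-fold, and their medians, were recomputed with normexp background correction, quantile normalization, the deposited value table, the mean of a gene's probes, no filter on dim probes, centring on all measured genes and, chosen after seeing the data, centring on inner retina markers. The lower count ranged from 4 to 5 in Otx2 KI and from 3 to 5 in Crx KO, and the higher count was 0 throughout. Over all genes the share at least 2-fold lower ranged from 1.78% to 4.24% in Otx2 KI and from 2.04% to 5.03% in Crx KO. Both ranges ran from normexp background correction to no filter on dim probes, so a steady count is not a steady excess over all genes. Bbs5, Bbs12 and Rpgrip1 were past 2-fold in both mutant arrays under all 8 settings, the main one included. Cc2d2a was so under 7 in Otx2 KI and 5 in Crx KO, Lca5 under 6 in Otx2 KI, and Bbs9 under 2 in Crx KO. Not all settings could change a call. The deposited value table is a constant multiple per array, and all 38 genes pass the filter on dim probes. The mean of probes cannot move a gene with 1 probe, such as Bbs12. Medians ranged from -0.30 to -0.26 and from -0.38 to -0.26. At 1.5-fold the lower counts were 12 and 13. The counts of other cilium genes past the limit were 12 and 17 in place of 5 and 7, since the looser limit takes in smaller differences. Over all genes 6.35% and 8.25% were lower at 1.5-fold, and 3.66% and 5.02% higher. The sign was kept under all settings for 37 of 38 genes in Otx2 KI (not Dync2h1), 34 in Crx KO (not Ift80, Kif3a, Dync2h1 or Ahi1) and 25 between the mutant arrays, whose median also changed side, from 0.02 to -0.02 with quantile normalization and -0.01 when centred on all genes; centred on inner retina lists it was 0.10. No paired analysis was possible because each genotype has 1 array. Signal near background limits Ift140 and the dimmer Kif17 probe.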

Other observations

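Genes of motile cilia, which the retina's primary cilia do not need for beating, were read as a marker list of multiciliated cells. Of 20 listed genes 15 were measured, with medians of -0.12 and -0.10. Dnah9, Gmnc, Spag6 and Spag16 were not well above background on any array. Summed over the 19 genes with a probe, these included, scaled signals were 26816 on the wild-type array, 31846 on Otx2 KI and 32799 on Crx KO. Foxj1, the master regulator of motile cilia, gave -0.15 and -0.50. Ccdc113, a ciliary and centriolar satellite protein, read 2672 with wild-type RNA, 279 with Otx2 KI and 261 with Crx KO, a log2 difference of -3.26 and -3.35, lower than that of any of the 38 ciliary genes. Dnaic2, an outer dynein arm intermediate chain, read 791, 162 and 201 (-2.28 and -1.98). Rsph9, a radial spoke protein, gave -0.54 and -1.17. Tekt4, a tektin of the ciliary doublets, read 208, 598 and 432 and was 1.53 and 1.06 above wild-type on the log2 scale.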
